A study of Mus musculus with 18 samples.

Results

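The interferon receptors and their JAK kinases were followed through 7 genes, taken as the rows with those symbols among the 16248 genes of the expression table. Ifnar1 and Ifnar2 encode the 2 chains of the type I interferon receptor, Ifngr1 and Ifngr2 those of the type II (interferon gamma) receptor, and Jak1, Jak2 and Tyk2 the tyrosine kinases bound to their cytoplasmic tails. RNA was sequenced from ECs (endothelial cells) of female FVB mice, drawn from wild type mice (normal mammary fat pad), from MMTV-PyMT spontaneous mammary tumours (the polyoma middle T oncogene driven by the MMTV promoter in mammary epithelium) and from implanted tumours (cells of MMTV-PyMT tumours, cultured briefly and placed in the fat pad of adult wild type FVB females with Matrigel). PBS or the STING agonist cGAMP was injected, and tissue was taken 3 h later. Living CD45- CD31+ cells were sorted after CD31 bead enrichment, giving 6 groups of 3 libraries. The 6 columns labelled only as control or STING carry no tissue name and were taken as normal fat pad, the tissue left over.

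STING is an adaptor that senses cyclic dinucleotides and switches on interferon genes. Type I interferon binds IFNAR1 and IFNAR2, which carry TYK2 and JAK1, and interferon gamma binds IFNGR1 and IFNGR2, which carry JAK1 and JAK2. The kinases phosphorylate STAT proteins, which enter the nucleus and switch on interferon-stimulated genes, among them inhibitors such as Socs1 and Usp18 that damp the same receptors.

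All 7 genes are protein-coding. Ifnar2, Ifnar1 and Ifngr2 lie in that order on the plus strand of chromosome 16, from 91372783 to 91405589, 91485238 to 91507441 and 91547072 to 91565623. Ifngr1 lies on chromosome 10 (19591949 to 19610229, plus strand), Jak1 on chromosome 4 (101152367 to 101265282, minus strand), Jak2 on chromosome 19 (29251828 to 29313080, plus strand) and Tyk2 on chromosome 9 (21104068 to 21131243, minus strand), all in the mm10 (GRCm38) build. Ifnar2 shares 315 exon bases with the same-strand gene model Gm21970, Tyk2 shares 554 with the antisense gene 1700084C06Rik and Jak1 shares 4 with Raver2, so reads in those bases are uncertain, and whether counting used strand is not stated.

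Promoter sequences of 4 members are shown because the data set them against each other: Jak2 moved most under cGAMP, Tyk2 fell in 1 tissue, and Ifnar1 and Ifnar2, the paired chains, moved in opposite directions in implanted ECs. The Ifnar2 rise there depended on how the libraries were scaled, as given below. Each window runs 5′ to 3′ on the gene's strand, from 250 bases before to 50 bases after the RefSeq start (build GRCm38.p6), and all 7 members had an entry. Capitals mark a GAS-like motif, TTCNNNGAA, which reads the same on both strands; an ISRE-like motif, GAAANNGAAA, was searched on both strands.
Jak2 promoter (chr19:29251553-29251852, plus strand): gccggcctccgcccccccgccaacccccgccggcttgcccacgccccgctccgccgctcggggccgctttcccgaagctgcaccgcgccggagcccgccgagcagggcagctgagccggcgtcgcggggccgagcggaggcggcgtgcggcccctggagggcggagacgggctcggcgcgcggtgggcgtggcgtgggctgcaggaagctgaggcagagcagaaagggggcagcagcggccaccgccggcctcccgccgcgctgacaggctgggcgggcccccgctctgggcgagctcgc
Tyk2 promoter (chr9:21131226-21131525, minus strand): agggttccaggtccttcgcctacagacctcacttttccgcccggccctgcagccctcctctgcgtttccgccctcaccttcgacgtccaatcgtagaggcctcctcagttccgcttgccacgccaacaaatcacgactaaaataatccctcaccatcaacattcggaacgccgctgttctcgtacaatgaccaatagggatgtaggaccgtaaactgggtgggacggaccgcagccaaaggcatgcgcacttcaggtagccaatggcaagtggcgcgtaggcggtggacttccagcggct
Ifnar1 promoter (chr16:91484965-91485264, plus strand): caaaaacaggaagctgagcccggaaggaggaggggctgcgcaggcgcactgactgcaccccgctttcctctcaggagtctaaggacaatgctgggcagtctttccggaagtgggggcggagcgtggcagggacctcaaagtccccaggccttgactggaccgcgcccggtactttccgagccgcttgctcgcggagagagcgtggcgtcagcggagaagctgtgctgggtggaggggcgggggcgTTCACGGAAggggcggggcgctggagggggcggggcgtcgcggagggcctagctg
Ifnar2 promoter (chr16:91372533-91372832, plus strand): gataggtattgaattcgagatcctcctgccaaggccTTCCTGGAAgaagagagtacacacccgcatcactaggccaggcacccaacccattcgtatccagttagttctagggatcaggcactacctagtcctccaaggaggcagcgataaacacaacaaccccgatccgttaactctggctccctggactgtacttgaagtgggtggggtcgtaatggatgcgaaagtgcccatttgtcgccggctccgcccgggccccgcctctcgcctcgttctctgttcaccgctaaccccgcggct
The ISRE-like letters were in none of the 7 windows, against 3.44% of all 32851 promoter windows. The GAS-like letters were in those of Ifnar1 and Ifnar2, against 8.30% of all windows. In Ifnar1 the match, TTCACGGAA, spans the start site (bases 246 to 254 of the window), and in Ifnar2 the match, TTCCTGGAA, lies upstream (bases 37 to 45). The Jak2 window was the richest of the 7 in G and C, at 81.0%, with 44 CG pairs, and the Ifnar2 window the poorest, at 57.0% with 18. These matches describe letters in a window and not binding.

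Expression is given as FPKM, fragments scaled by transcript length and a factor for each library, so that levels of different genes compare per length. The read counts behind the FPKM could be recovered for 15788 of the listed genes, and over these each library held 8979485 to 11926472 reads. The library factors did not follow those totals. They tracked size factors, the median ratio over genes, to within 0.316%. Scaling by total reads, an alternative used below, replaces them with the totals of recovered reads. Tyk2 was the member with fewest, 180 to 421 reads a library, a counting error of 7.45% at its lowest, and Jak1 had the most, 4294 to 8199. Such errors cover counting alone. All 10 endothelial markers were listed in every library, at a summed 771 to 1874 FPKM, and the 4 adipocyte markers were not in the table, which lists only genes above 0 in all 18 libraries. Epithelial markers summed to 260 to 966 FPKM and mural markers to 168 to 1050, in every library beside the endothelial ones. In bulk RNA, fewer cells of a type and less RNA per cell cannot be told apart. Differences were tested with limma on log2(FPKM + 1) over 13983 genes, with Benjamini-Hochberg adjustment over all of them and a threshold of 0.05, and "log2 difference" below is a difference of group means on that scale. Each group came from 3 mice over separate experiments, but which library came from which experiment is not given, so p-values measure the spread between these libraries. The fit took 1 spread per gene over all 6 groups, so a gene's SE was the same in each tissue. The spread itself was not equal: for Jak1 under cGAMP the SD was 19.0 FPKM in implanted, 4.56 in normal and 2.39 in MMTV-PyMT ECs. A shared SE can understate the spread of a group that varies more.

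Under PBS the receptor and kinase genes were led by Jak1 and Ifngr1. In normal ECs Ifngr1 averaged 59.2 ± 7.56 FPKM (SD, n = 3) and Jak1 55.3 ± 3.83, with overlapping ranges. Ifnar2 (19.0 ± 1.70) and Jak2 (17.8 ± 1.02) followed and also overlapped. Below them, each apart from its neighbour, were Ifnar1 at 13.8 ± 1.80, Ifngr2 at 8.92 ± 0.631 and Tyk2 at 5.08 ± 0.504 FPKM. In both tumour types Jak1 stood alone on top under PBS, at 63.2 ± 1.39 FPKM (MMTV-PyMT) and 65.4 ± 2.51 FPKM (implanted). Ifngr1 came next there, and Jak2, Ifnar2 and Ifnar1 followed with ranges that overlapped between neighbours. Tyk2 was lowest in all 6 groups. Averaged over the 18 libraries, Jak1 (73.2 FPKM) exceeded 97.1% of the tested genes, while Tyk2 (4.09 FPKM) exceeded 44.7%.

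**Figure D1:**
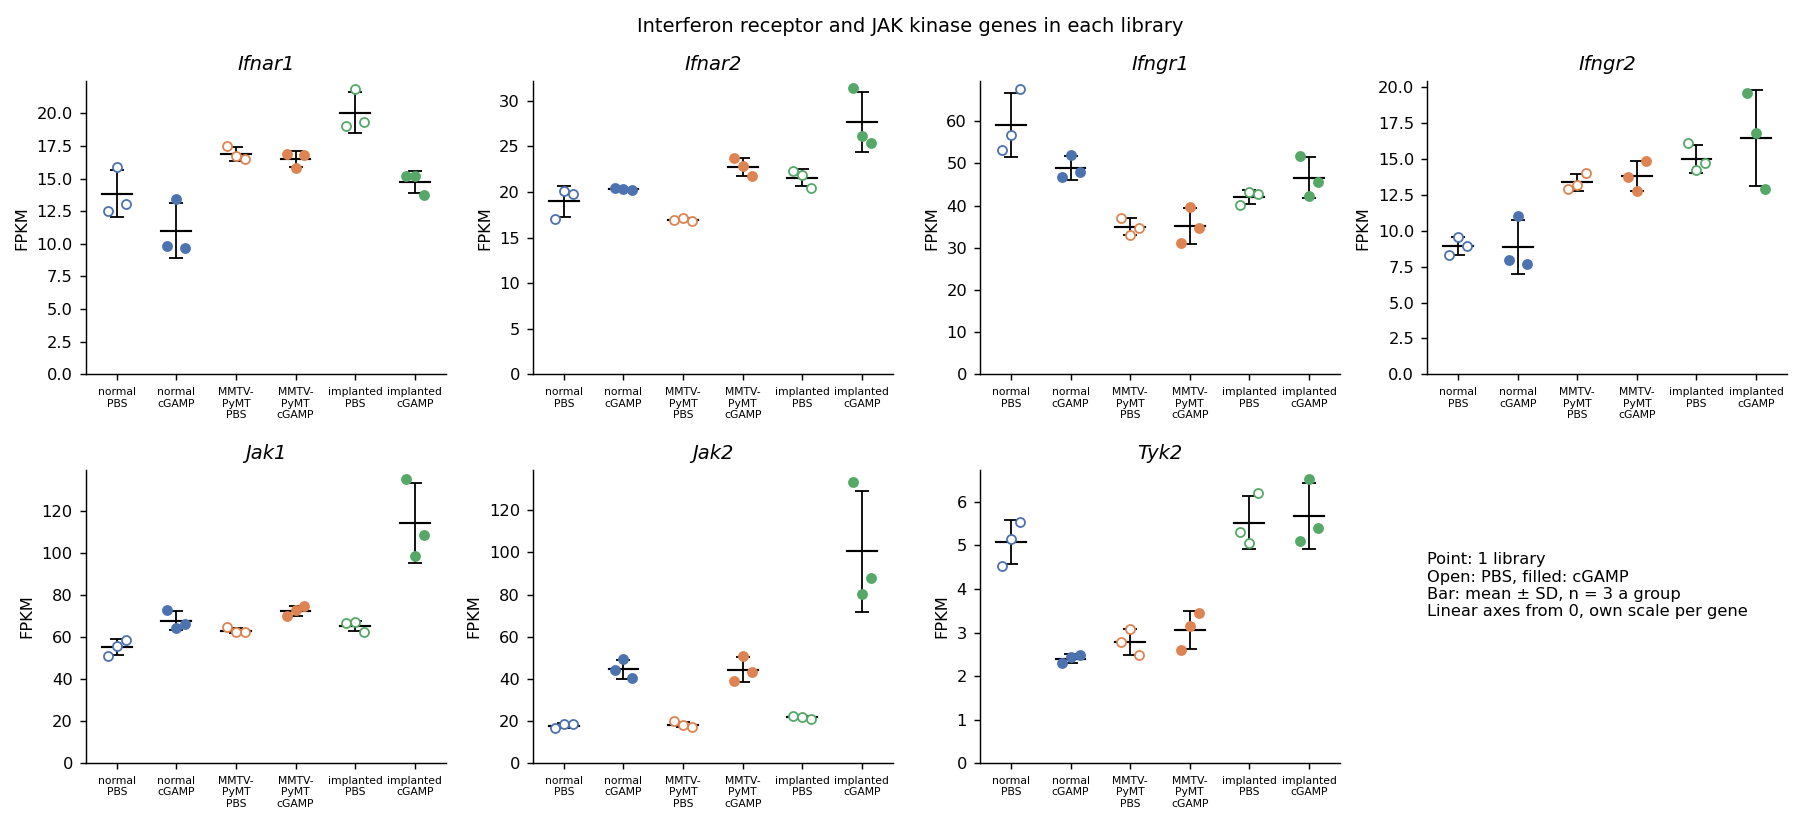
FPKM of each of the 7 genes (linear axes from 0) in the 18 libraries, by tissue and treatment; points are libraries, open for PBS and filled for cGAMP, and bars are mean ± SD (n = 3). Jak2 lay between 16.6 and 22.3 FPKM in all 9 PBS libraries and between 39.1 and 133 in the 9 cGAMP libraries.

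cGAMP raised Jak2, the kinase of the interferon gamma receptor chain IFNGR2, in all 3 tissues, and Jak1, Ifnar2, Ifnar1 and Tyk2 passed the threshold in some of them. Of the 7 genes, 4 passed in normal ECs (2 higher, 2 lower), 2 passed in MMTV-PyMT ECs (both higher) and 4 passed in the implanted tumours' ECs (3 higher, 1 lower). Over all tested genes 31.9% passed in normal ECs (13.7% higher, 18.2% lower), for MMTV-PyMT ECs the share was 12.0% (7.42% higher, 4.57% lower) and for implanted ECs 39.1% (20.3% higher, 18.8% lower). For normal ECs the 7 genes had a median log2 difference of -0.02, for MMTV-PyMT ECs one of 0.10 and for implanted ECs one of 0.14, where all tested genes had medians of -0.04, -0.04 and -0.01.

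Among the kinases, Jak2 in normal ECs was 16.6, 18.3 and 18.4 FPKM under PBS and 44.0, 49.4 and 40.4 under cGAMP. MMTV-PyMT ECs gave 19.8, 18.1 and 17.0 under PBS and 39.1, 50.6 and 43.2 FPKM under cGAMP. In implanted ECs Jak2 was 22.3, 21.8 and 20.9 under PBS and 133, 80.1 and 88.0 under cGAMP. The arms did not overlap in any tissue, and the 3 implanted cGAMP libraries were the highest of all 18. The ratio of mean FPKM was 2.51 for normal ECs, 2.42 for MMTV-PyMT ECs and 4.64 for implanted ECs. The log2 differences were 1.27 (SE 0.146, limma adjusted p = 1.08e-05), 1.23 (SE 0.146, adjusted p = 1.94e-05) and 2.13 (SE 0.146, adjusted p = 1.23e-08). By size of difference Jak2 ranked 286, 265 and 197 of 13983 genes.

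Jak1, the kinase common to both receptors, was 51.2, 55.8 and 58.9 FPKM under PBS and 73.0, 64.2 and 66.5 under cGAMP in normal ECs. In implanted ECs it was 66.6, 67.1 and 62.5 under PBS and 136, 98.9 and 109 under cGAMP. MMTV-PyMT ECs gave 64.8, 62.4 and 62.5 under PBS and 70.1, 73.2 and 74.8 under cGAMP. All cGAMP libraries were above all PBS libraries of their tissue. Jak1 rose by a log2 difference of 0.29 in normal ECs (SE 0.0953, limma adjusted p = 0.0284) and of 0.79 in implanted ECs (adjusted p = 7.39e-06), and in MMTV-PyMT ECs its difference of 0.20 did not pass (95% interval -0.004 to 0.40, adjusted p = 0.198). Its implanted value shrank to 0.47 when total reads set the scale (adjusted p = 0.000103) and to 0.30 with quantile normalization (adjusted p = 0.00278). The Jak1 call in normal ECs was lost without normal PBS replicate 1 (adjusted p = 0.113) or 2 (0.0616) and without normal cGAMP replicate 1 (0.108) or 3 (0.0519).

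Tyk2, the kinase on the IFNAR1 chain, was 4.54, 5.16 and 5.54 FPKM under PBS and 2.29, 2.43 and 2.48 under cGAMP in normal ECs. Those arms did not overlap, and the ratio of means was 0.473. In MMTV-PyMT ECs Tyk2 was 2.78, 3.09 and 2.48 under PBS and 2.59, 3.15 and 3.45 under cGAMP, and in implanted ECs 5.30, 5.05 and 6.21 against 5.10, 6.53 and 5.40. Tyk2 fell in normal ECs, with a log2 difference of -0.83 (SE 0.11, limma adjusted p = 4.16e-05). It passed in neither tumour type, with 95% intervals of the log2 difference of -0.13 to 0.33 (MMTV-PyMT ECs) and -0.20 to 0.27 (implanted ECs).

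**Figure D2:**
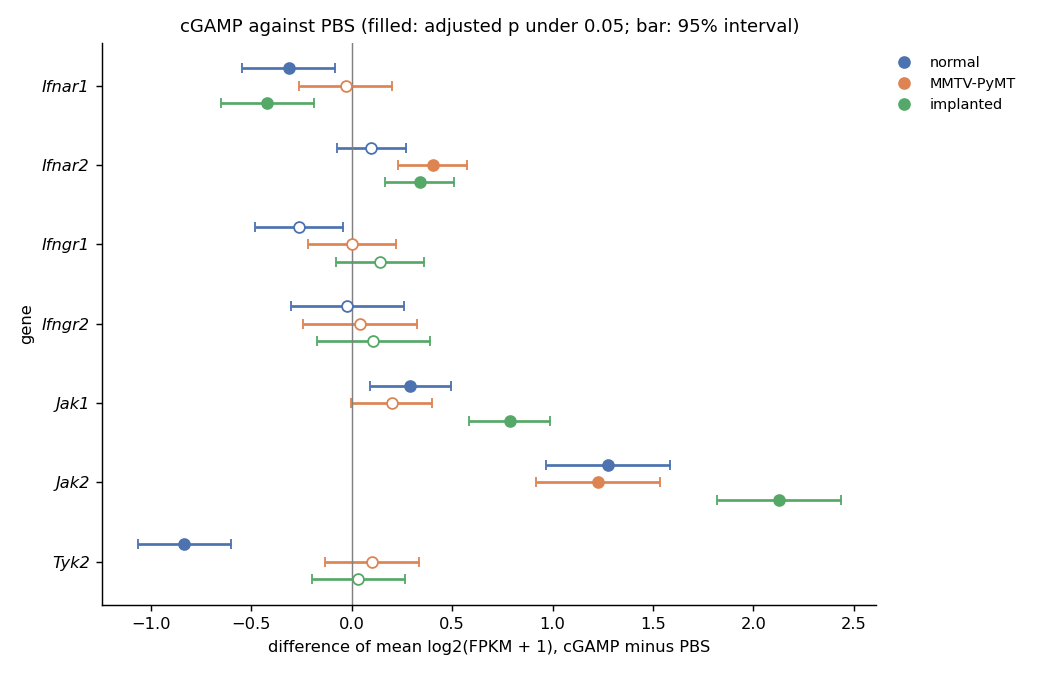
Difference of mean log2(FPKM + 1), cGAMP minus PBS, for the 7 genes (vertical axis) in normal, MMTV-PyMT and implanted ECs; points are limma estimates, bars 95% intervals, and filled points passed an adjusted p of 0.05. Jak2 sits right of 0 in all 3 tissues, from 1.23 to 2.13, and Tyk2 sits left of 0 in normal ECs, at -0.83.

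Of the type I receptor chains, Ifnar1 was 12.5, 15.9 and 13.1 FPKM under PBS and 9.85, 13.4 and 9.70 under cGAMP in normal ECs, with overlapping arms. In implanted ECs it was 19.0, 21.8 and 19.3 under PBS and 15.2, 15.2 and 13.7 under cGAMP, with no overlap. MMTV-PyMT ECs gave 17.5, 16.7 and 16.5 against 16.9, 15.8 and 16.8. Ifnar1 fell in normal ECs by a log2 difference of -0.32 (SE 0.109, limma adjusted p = 0.0363) and in implanted ECs by -0.42 (SE 0.109, adjusted p = 0.00592). The implanted value of Ifnar1 was -0.72 when total reads set the scale (adjusted p = 3.94e-05). The 95% interval in MMTV-PyMT ECs was -0.26 to 0.20. The Ifnar1 call in normal ECs was lost without normal PBS replicate 2 (adjusted p = 0.175) or 3 (0.0548), without normal cGAMP replicate 1 (0.136) or 3 (0.149), and in a fit on the libraries of that comparison alone (0.122).

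Ifnar2, the signalling chain that binds JAK1, was 17.0, 17.2 and 16.8 FPKM under PBS and 23.7, 22.8 and 21.8 under cGAMP in MMTV-PyMT ECs. In implanted ECs it was 22.3, 21.9 and 20.5 under PBS and 31.4, 26.1 and 25.4 under cGAMP. Normal ECs gave 17.0, 20.2 and 19.8 against 20.4, 20.3 and 20.2. No cGAMP library overlapped the PBS libraries of its tissue, in normal ECs narrowly (20.23 under cGAMP against 20.16 under PBS). Ifnar2 rose by a log2 difference of 0.40 in MMTV-PyMT ECs (SE 0.0815, limma adjusted p = 0.00384) and of 0.34 among implanted ECs (adjusted p = 0.00378), and the 0.10 in normal ECs did not pass (95% interval -0.08 to 0.27). Scaling by total reads, which moved the median of all tested genes by -0.23 in implanted ECs, left Ifnar2 a difference of 0.03 there (adjusted p = 0.715), quantile normalization left 0.05 (0.536), and a fit on those libraries alone gave an adjusted p of 0.0555.

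The type II receptor chains did not pass in any tissue. Ifngr1, the ligand-binding chain of the interferon gamma receptor, was 53.2, 56.7 and 67.7 FPKM under PBS and 46.8, 52.1 and 48.0 under cGAMP in normal ECs, all lower. Its log2 difference there was -0.26 (limma adjusted p = 0.0621). Scaling by total reads (adjusted p = 0.0229), quantile normalization (0.00504) and leaving out normal PBS replicate 1 (0.0389), implanted cGAMP replicate 1 (0.0452) or MMTV-PyMT cGAMP replicate 2 (0.0475) brought Ifngr1 past the threshold. For Ifngr1 in MMTV-PyMT and implanted ECs the log2 differences were 0.00 and 0.14, with overlapping arms. Ifngr2, the chain that carries JAK2, gave 95% intervals of its log2 difference of -0.30 to 0.26 (normal ECs), -0.24 to 0.32 (MMTV-PyMT ECs) and -0.18 to 0.39 (implanted ECs).

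The differences between tissues in the cGAMP effect were tested as interactions. Jak2 rose more in implanted ECs than in normal ECs (difference of log2 differences 0.85, SE 0.206, limma adjusted p = 0.00857) and than in MMTV-PyMT ECs (0.90, adjusted p = 0.00918). Jak1 did likewise, by 0.49 against normal ECs (adjusted p = 0.0171) and 0.59 against MMTV-PyMT ECs (adjusted p = 0.00942). Tyk2 differed between normal ECs and both tumour types, by 0.94 for MMTV-PyMT ECs (adjusted p = 0.00287) and 0.87 for implanted ECs (adjusted p = 0.0011). So 1 of 7 genes passed for MMTV-PyMT minus normal, 3 for implanted minus normal and 2 for implanted minus MMTV-PyMT, against 8.37%, 18.6% and 11.1% of all tested genes. No such difference passed for Ifnar1, Ifnar2, Ifngr1 or Ifngr2. In the same order the limma adjusted p were 0.275, 0.680 and 0.121 for Ifnar1 and 0.116, 0.163 and 0.787 for Ifnar2. In some alternatives a difference of Ifnar1, Ifnar2 or Ifngr1 passed. With quantile normalization the Jak1 and Jak2 differences did not pass: for Jak2 they were 0.35 (adjusted p = 0.139) and 0.45 (0.0812), for Jak1 0.09 (0.578) and 0.20 (0.226). Scaling by total reads took the Jak2 difference from normal ECs to 0.54 (adjusted p = 0.0307). It also ended the Jak1 call against normal ECs (0.18, adjusted p = 0.219), as did leaving out normal PBS replicate 3 (0.0511) or fitting those libraries alone (0.0528). Tyk2 passed in both under all 25 alternatives in which it was tested. The filter on a mean of at least 5 FPKM leaves Tyk2 out.

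Implanted cGAMP replicate 2 carried more leukocyte RNA than the rest, with 7 of 9 markers listed and a summed 213 FPKM against 17.2 to 68.1 in the other 17 libraries. Fibroblast markers (4 of 4 listed) summed to 476 FPKM there and to 381 and 198 in the other implanted cGAMP libraries, against 182 to 212 under PBS. Without that library Jak2 rose by 2.27 (limma adjusted p = 1.46e-08) and Jak1 by 0.88 (adjusted p = 2.51e-06) in implanted ECs, each larger than with it. In that fit 4 of the 7 genes still passed, where 39.7% of all tested genes passed. The highest Jak2 and Jak1 values were in implanted cGAMP replicate 1, whose summed endothelial markers were 1874 FPKM against 1131 and 1355 in replicates 2 and 3. Its epithelial markers summed to 260 FPKM (568 and 480 in those) and its mural markers to 433 FPKM (315 and 168), and their part in the Jak2 and Jak1 values was not tested. Without that library the Jak2 difference was 1.91 and the Jak1 difference 0.66. In MMTV-PyMT ECs epithelial markers summed to 893 to 966 FPKM under PBS and to 616 to 866 under cGAMP. In normal ECs the arms overlapped (439 to 565 and 445 to 494). The part of epithelial RNA in the cGAMP differences of MMTV-PyMT ECs was not tested.

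A ratio of 2 genes within a library does not depend on how libraries are scaled. The mean over tissues of the cGAMP minus PBS difference of each log2 ratio was tested by an exact 2-sided permutation within tissues (8000 arrangements, smallest possible p 0.00025), adjusted over 4 ratios. Under PBS, Jak2/Jak1 in normal ECs was 0.322 ± 0.00781 (SD, n = 3), against 0.289 ± 0.0166 for MMTV-PyMT and 0.331 ± 0.00569 for implanted ECs. With cGAMP it was 0.660 ± 0.0954, 0.609 ± 0.0717 and 0.868 ± 0.10. The arms were apart in all 3 tissues, and the mean log2 difference was 1.16 (exact permutation adjusted p = 0.0005).

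For the type I receptor, the PBS value of Ifnar1/Ifnar2 was 0.729 ± 0.0637 for normal, 0.995 ± 0.0301 for MMTV-PyMT and 0.930 ± 0.0735 for implanted ECs. cGAMP brought it to 0.540 ± 0.103, 0.726 ± 0.0422 and 0.536 ± 0.0508. Each cGAMP library lay below each PBS library of its tissue, in normal ECs narrowly (0.660 against 0.662). The mean log2 difference was -0.57 (exact permutation adjusted p = 0.0005), made up of -0.44 (normal), -0.46 (MMTV-PyMT) and -0.80 (implanted).

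Tyk2/Jak1 fell as well, by a mean log2 difference of -0.73 (exact permutation adjusted p = 0.00333), with parts of -1.37 (normal), -0.07 (MMTV-PyMT) and -0.76 (implanted). In MMTV-PyMT ECs the arms overlapped (0.0396 to 0.0496 under PBS, 0.0370 to 0.0461 under cGAMP). Ifngr1/Ifngr2 differed by -0.08 (exact permutation adjusted p = 0.380). That ratio was 6.65 ± 0.835 in normal ECs under PBS, and 2.62 ± 0.224 and 2.82 ± 0.289 in MMTV-PyMT and implanted ECs.

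**Figure D3:**
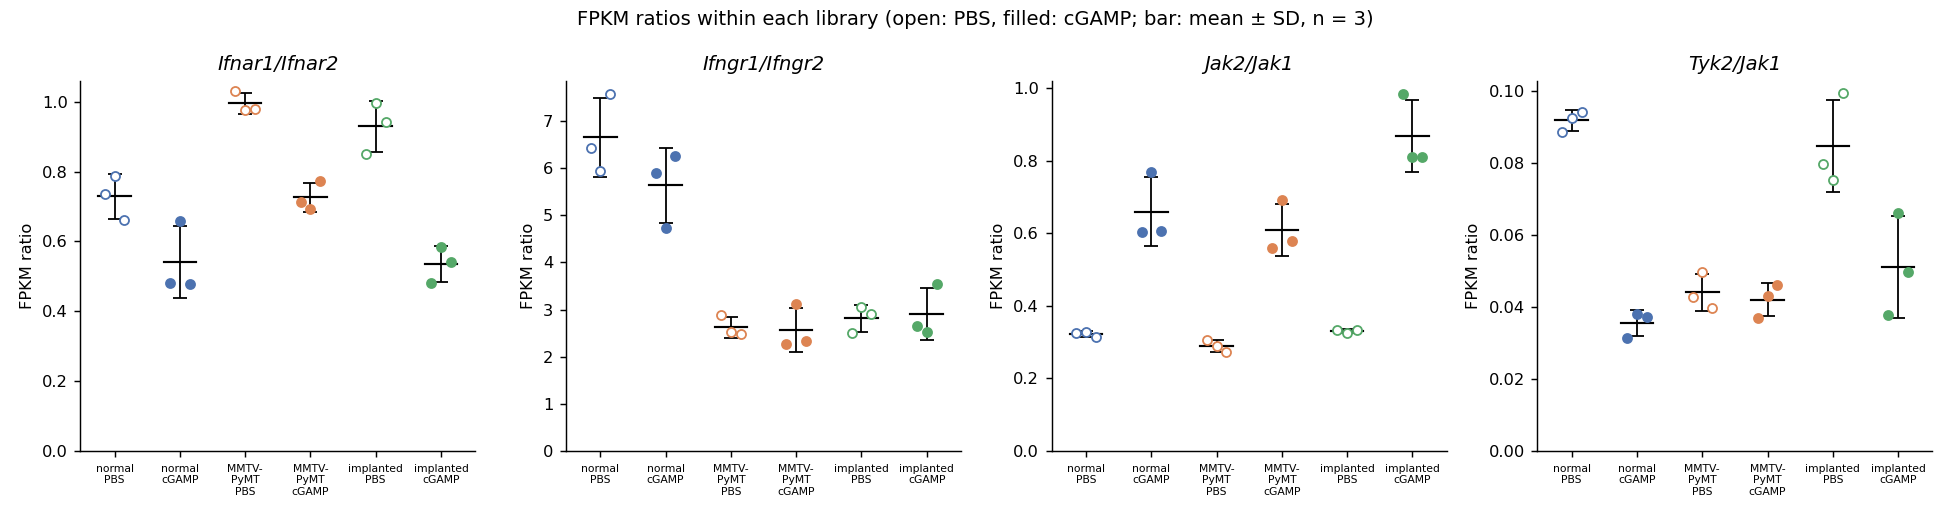
FPKM ratios (linear axes from 0) of 4 pairs of genes within each library, by tissue and treatment; points are libraries, open for PBS and filled for cGAMP, and bars are mean ± SD (n = 3). Jak2/Jak1 lay between 0.272 and 0.335 in the PBS libraries and between 0.558 and 0.983 in the cGAMP libraries.

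As shares of the FPKM summed over Jak1, Jak2 and Tyk2, Jak2 held 22.8% ± 0.453 (normal), 21.7% ± 0.950 (MMTV-PyMT) and 23.4% ± 0.242 (implanted) with PBS. Under cGAMP it held 38.8% ± 3.29, 36.8% ± 2.65 and 45.1% ± 3.06. For the sum itself, 78.2 ± 5.30 FPKM became 115 ± 5.04 in normal ECs. In MMTV-PyMT ECs 84.3 ± 2.80 became 120.1 ± 7.69, while implanted ECs went from 92.6 ± 2.56 to 221 ± 47.1 FPKM. After cGAMP, Jak2 overlapped Jak1 in level in implanted ECs (80.1 to 133 against 98.9 to 136 FPKM), and in no other group.

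Between tissues under PBS, the interferon gamma receptor chains went opposite ways. These comparisons use the PBS libraries that also serve as controls above. Ifngr1 was lower than in normal ECs by a log2 difference of -0.74 in MMTV-PyMT ECs (limma adjusted p = 1.97e-05) and by -0.48 in those of implanted tumours (adjusted p = 0.00115). Ifngr2 was higher, by 0.54 (adjusted p = 0.00283) and 0.69 (adjusted p = 0.000466). The libraries did not overlap: Ifngr1 was 53.2, 56.7 and 67.7 FPKM in normal ECs, 37.1, 33.2 and 34.7 for MMTV-PyMT and 40.1, 43.4 and 42.7 for implanted ECs. Ifngr2 was 8.27, 9.54 and 8.94 FPKM in normal ECs, 12.9, 13.2 and 14.04 for MMTV-PyMT and 16.1, 14.2 and 14.7 for implanted ECs.

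Tyk2 was lower in MMTV-PyMT ECs than in normal ECs (log2 difference -0.68, limma adjusted p = 7.26e-05) and than in implanted ECs (implanted minus MMTV-PyMT 0.78, adjusted p = 3.83e-05). Normal and implanted ECs overlapped, with a 95% interval of the difference of -0.13 to 0.33. Ifnar1 was higher than in normal ECs, by 0.28 (MMTV-PyMT, adjusted p = 0.0399) and 0.51 (implanted, adjusted p = 0.00107). The Ifnar1 call for MMTV-PyMT ECs was lost with quantile normalization (adjusted p = 0.119), with voom on recovered reads (0.0598), and without normal PBS replicate 1 (0.154) or 3 (0.118) or MMTV-PyMT PBS replicate 1 (0.101), 2 (0.074) or 3 (0.0654). Ifnar2 was higher in implanted than in MMTV-PyMT ECs, by 0.33 (adjusted p = 0.00397). When total reads set the scale, the Ifnar1 difference of implanted from normal ECs was 0.33 (adjusted p = 0.0141). The Ifnar2 difference of implanted from MMTV-PyMT ECs was then 0.17 (adjusted p = 0.0384).

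Jak1 was higher in implanted than in normal ECs, by 0.24, with a limma adjusted p of 0.0477 just inside the threshold. That call was lost in 14 of the 18 fits that leave out 1 library (adjusted p from 0.0506 to 0.173), all but those without normal PBS replicate 3, normal cGAMP replicate 1 or implanted cGAMP replicate 1 or 2, and when total reads or quantile normalization set the scale (0.589 and 0.532), with voom on recovered reads (0.0590) and with the replicate number as a block (0.0571). Ifngr1 in implanted against MMTV-PyMT ECs, 0.26 higher, missed it at an adjusted p of 0.050002. Without normal PBS replicate 1 or 3, implanted cGAMP replicate 1 or 2, or MMTV-PyMT cGAMP replicate 1 or 2, Ifngr1 passed (adjusted p from 0.0348 to 0.0475). It also passed with a pseudocount of 0.1 (0.0481), among genes with a mean of at least 5 FPKM (0.0445), with voom (0.0290) and in a fit on the compared libraries alone (0.0176). Jak2 did not pass in any of the 3, its 95% interval for MMTV-PyMT minus normal being -0.27 to 0.35. Its PBS values in implanted ECs were all above those of the other tissues, by log2 differences of 0.27 against normal ECs (95% interval -0.04 to 0.58, adjusted p = 0.139) and 0.23 against MMTV-PyMT ECs (-0.08 to 0.54, adjusted p = 0.205). The Jak2 difference from normal ECs passed in a fit on those libraries alone (adjusted p = 0.0108) and without implanted cGAMP replicate 1 (0.0274), and that from MMTV-PyMT ECs in a fit on those libraries alone (0.0367). Altogether 4, 4 and 2 of the 7 genes passed for MMTV-PyMT against normal, implanted against normal and implanted against MMTV-PyMT ECs, where 56.5%, 48.7% and 45.5% of all tested genes passed. Summed mural markers (6 of 6 listed) were 932 to 1050 FPKM in normal PBS libraries and 204 to 303 in those of tumours, and summed epithelial markers 893 to 966 FPKM in MMTV-PyMT PBS libraries against 393 to 566 in the other tissues. Summed endothelial markers were 771 to 949 FPKM in MMTV-PyMT PBS libraries, 1169 to 1315 in normal ones and 1109 to 1427 in implanted ones. Their part in these tissue differences was not tested.

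**Figure D4:**
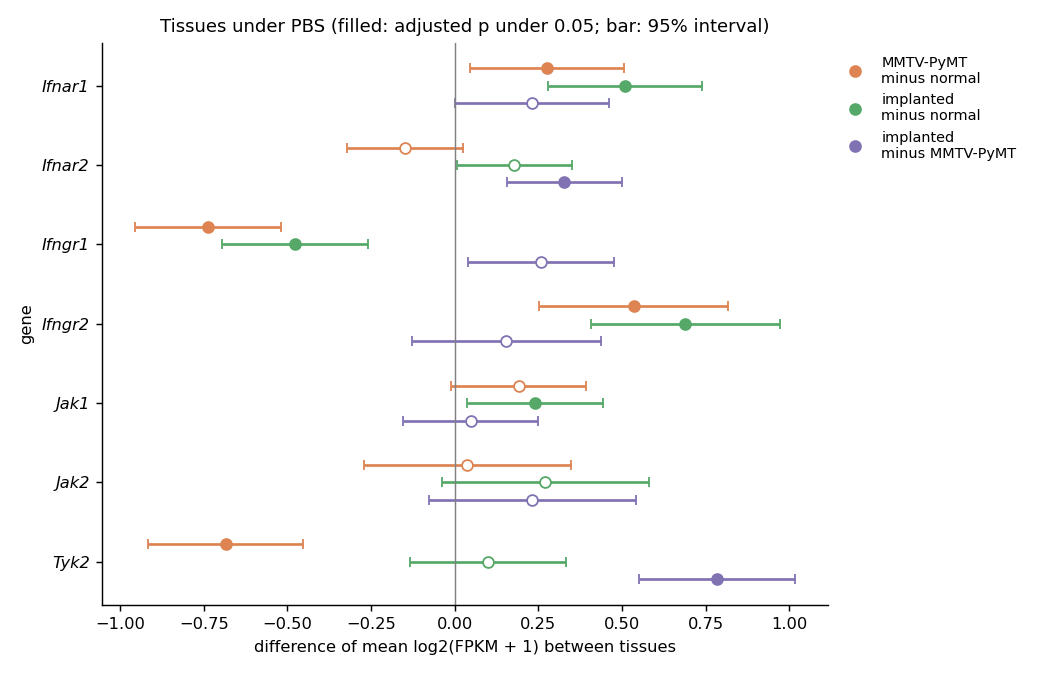
Difference of mean log2(FPKM + 1) between tissues under PBS for the 7 genes (vertical axis); points are limma estimates, bars 95% intervals, and filled points passed an adjusted p of 0.05. Ifngr1 sits left of 0 (-0.74 and -0.48) and Ifngr2 right of 0 (0.54 and 0.69) in the comparisons with normal ECs.

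Other JAK-STAT genes were described by lists, to be read against the 31.9% (normal), 12.0% (MMTV-PyMT) and 39.1% (implanted) of all tested genes that passed and their medians of -0.04, -0.04 and -0.01. Those shares count both directions, and the shares that rose were 13.7%, 7.42% and 20.3%. Of 28 tested receptors that also signal through JAKs, normal ECs had 4 that rose and 4 that fell, MMTV-PyMT ECs had 5 that rose, and implanted ECs had 18 that rose and 3 that fell, with median log2 differences of 0.00, 0.17 and 0.62. Without implanted cGAMP replicate 2, the library with most leukocyte RNA, 18 rose and 2 fell in implanted ECs (median 0.58), where 39.7% of all tested genes passed, and without replicate 1 16 rose and 1 fell (median 0.56), where 32.1% passed. Some of these receptors varied widely within the group: implanted cGAMP means were 6.33 ± 6.76 FPKM for Il10ra, 8.19 ± 8.25 for Il2rb and 2.73 ± 2.79 for Il2ra, 3 genes chosen after their values were seen. The part of leukocyte RNA in the list's values was not tested. Osmr, the oncostatin M receptor, rose by 0.69 (normal), 1.05 (MMTV-PyMT) and 1.66 (implanted). Csf2rb, the common chain of the GM-CSF, IL-3 and IL-5 receptors, rose by 0.88, 1.07 and 1.36, and Il4ra, a chain of the IL-4 receptor, by 1.10, 0.60 and 0.56.

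Downstream of the kinases, 8 of 9 genes of the list of Jak3, the STATs and Irf9 were tested. Those that rose numbered 6 for normal ECs (with 1 that fell), 5 for MMTV-PyMT ECs and 8 for implanted ECs, with median log2 differences of 0.82, 0.48 and 0.79. In implanted ECs 8 also rose without cGAMP replicate 2, and 6 without replicate 1. Stat2 and Irf9, whose products act together in the type I interferon response, rose in every tissue. For Stat2 the differences were 2.04, 2.80 and 2.25, and for Irf9 1.5, 1.44 and 0.76. Stat3 rose by 0.80, 0.57 and 0.96.

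Brakes on the pathway numbered 18, all tested. Each tissue had 6 that rose, and normal ECs also had 2 that fell, with medians of 0.14, 0.14 and 0.22. The 6 in implanted ECs are to be set against 20.3% of all tested genes that rose there and 39.1% that passed in either direction. They were 5 without cGAMP replicate 1 or 2. Usp18, which displaces JAK1 from IFNAR2, rose by 4.03, 4.75 and 4.56. Its mean was 2.55 ± 0.557 FPKM under PBS and 57.9 ± 14.5 under cGAMP in normal ECs, and 11.2 ± 2.75 and 281 ± 7.51 in implanted ECs. Socs1, an inhibitor of JAK kinases, rose by 2.43, 2.71 and 2.60, Ptpn2, a phosphatase that acts on JAK1, by 1.02, 0.81 and 1.27, and Socs2 by 0.77, 0.92 and 0.75.

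The receptor turnover list held 4 genes, linked to ubiquitination of IFNAR1. Csnk1a1 rose in normal and implanted ECs (0.35 and 0.23), and Prkd2 (0.67 and 0.72) rose in both tumour types. Fbxw11 rose in implanted ECs, by 0.74. That makes 1, 1 and 3 of 4 past the threshold, where 31.9%, 12.0% and 39.1% of all tested genes passed, and 3 also without implanted cGAMP replicate 1 or 2. The other differences of those 3 genes were 0.13 and 0.17 for Fbxw11 (normal and MMTV-PyMT), -0.01 for Csnk1a1 in MMTV-PyMT ECs and 0.14 for Prkd2 in normal ECs, none passing. Btrc gave -0.18, -0.13 and -0.26 and passed in none. None of the 10 interferon ligand genes of the list was in the table.

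**Figure D5:**
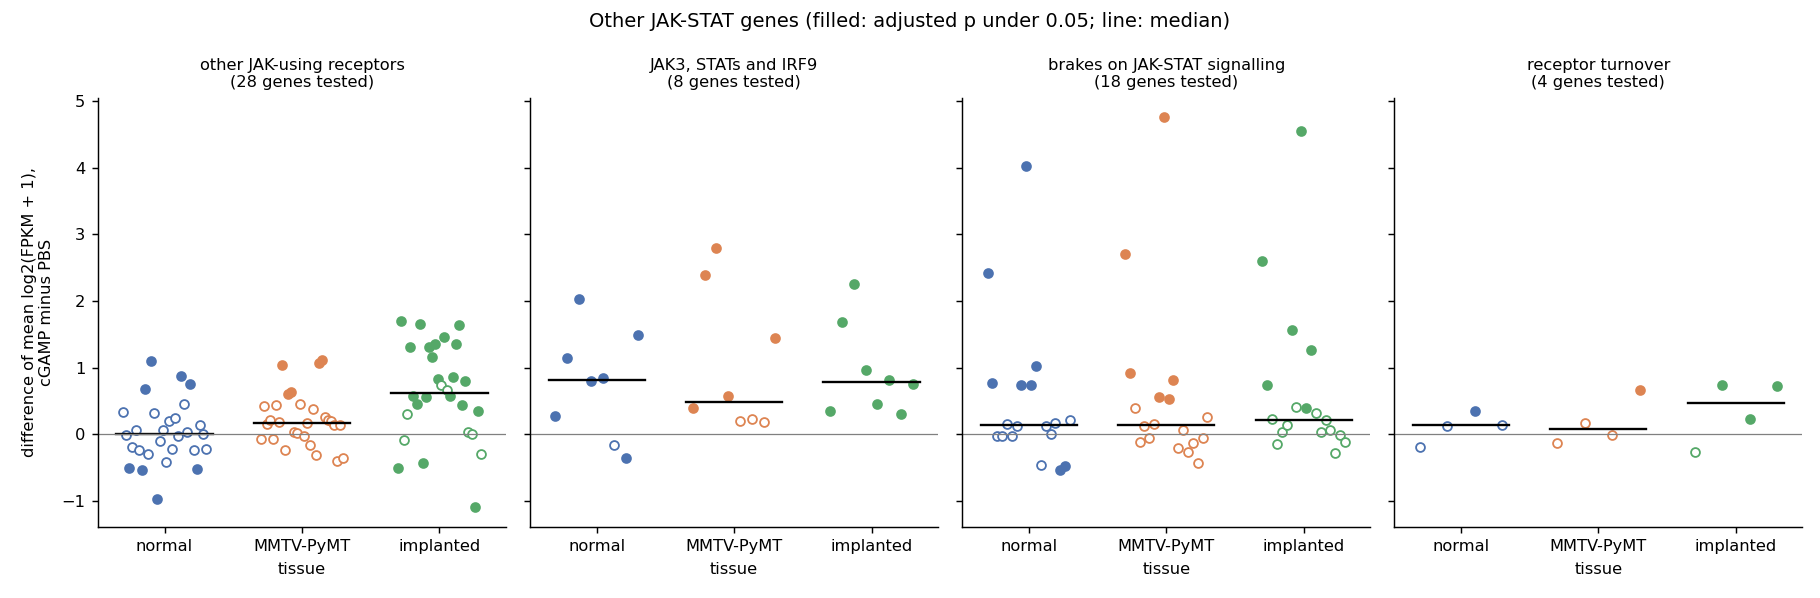
Difference of mean log2(FPKM + 1), cGAMP minus PBS, for the tested genes of 4 lists in normal, MMTV-PyMT and implanted ECs; each point is a gene, filled where the adjusted p was under 0.05, and the line is the median. In the list of other JAK-using receptors the median lies at 0.00 in normal ECs and 0.62 in implanted ECs.

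Genes beside the members on the chromosome were read in the same way. Il10rb, which encodes a chain of the IL-10 receptor and starts 574 bases past Ifnar2, fell in normal ECs (-0.50, limma adjusted p = 0.000645), where Ifnar2 gave 0.10; in MMTV-PyMT and implanted ECs Il10rb gave 0.16 and -0.08. Cdc37, a kinase co-chaperone 1978 bases from Tyk2, gave -0.12, -0.10 and 0.08 and passed in none, and Icam5 on the other side of Tyk2 rose in normal ECs (1.01, adjusted p = 9.70e-05). Of the tested genes beside Jak2, Insl6 rose in implanted ECs (1.29, adjusted p = 0.000584), and Rcl1 rose in normal (0.40) and fell in implanted ECs (-0.42). Raver2, next to Jak1, rose in normal (0.84) and implanted ECs (0.47), and E130102H24Rik on its other side rose in implanted ECs (0.74). Tnfaip3, an inhibitor of NF-kB 576291 bases from Ifngr1, rose by 1.98, 2.17 and 2.01, while Map3k5 on the other side gave -0.03, 0.06 and -0.20. Tmem50b, next to Ifngr2, fell in normal ECs (-0.30). Paxbp1 beside Ifnar2 and A930006K02Rik beside Ifnar1 passed in none.

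Likeness of pattern was measured as the root mean square difference of log2(FPKM + 1), each gene centred on its mean over the 18 libraries. The gene most like Jak2 was Dcp2, at 0.166, against a median of 0.950 over the tested genes, and that most like Tyk2 was Hikeshi, at 0.164 against 0.534. For Jak1 it was Fbxw11 (0.0867), for Ifnar2 Crk (0.104), for Ifnar1 Atg9a (0.104) and for Ifngr2 Map2k2 (0.119). For Ifngr1 it was a row whose symbol a spreadsheet had turned into a date. No member was the gene most like another member: the nearest member to Jak2 was Jak1, with 613 genes nearer, a count that includes Jak2 itself. The nearest pair was Jak1 and Ifnar2, at 0.184.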

How the data were processed

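RNA-seq libraries of sorted ECs were aligned by the authors with STAR 2.7 to mm10 and counted with HTSeq, per the submitters' processing notes. The deposited values are FPKM per gene, and how FPKM were made from counts is not given in the sources used here. The recovered library factors tracked size factors to within 0.316%. Every column was matched to a sample (0 left unmatched). Whole reads came out for 97.17% of genes, within 0.01 reads (in proportion for high counts), using exon lengths of GENCODE M21; they served for depth and for voom. Genes at 1 FPKM or more in at least 3 libraries were tested (13983, while 2265 fell below) with limma 3.58.1 in R 4.3.3 on log2(FPKM + 1), as 6 group means with an intensity trend. The fit was tested on simulated data in which each gene had the same spread in all groups. That cannot show how unequal spread affects the fit. A fold change on this scale understates the change of low genes. Named genes were the 7 members, list genes past the threshold in all 3 tissues (at most 4 a list), lists of 5 or fewer in full, neighbours and most alike genes. A named list gene is not reported here. The members and lists were chosen with earlier results of these data known. Alternatives were pseudocount 0.1, no filter, mean FPKM of at least 5, total-read scaling, quantile normalization, voom, a replicate block, the compared libraries alone and leaving out each library. No library pair matched within sampling noise. Python 3.11.15 made the tables.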

Additional observations from a re-analysis of the deposited data

Results flagged for a closer look

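In 6 cases the cGAMP effect on a member differed between tissues by the test of the difference itself (limma interaction term). For Jak1 the effect was larger in implanted ECs, by 0.49 against normal and 0.59 against MMTV-PyMT ECs on the log2 scale. For Jak2 it was larger in implanted ECs by 0.85 and 0.90 in the same comparisons. For Tyk2 the effect was higher by 0.94 in MMTV-PyMT and 0.87 in implanted ECs than in normal ECs, where Tyk2 was lower under cGAMP in 3 of 3 libraries. The Jak1 and Jak2 differences did not pass with quantile normalization, and both Tyk2 differences passed in all 25 alternatives in which Tyk2 was tested, the filter on a mean of at least 5 FPKM leaving it out.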

How the results depend on the processing

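Of 1629 values of the 63 member differences under the alternatives, 1504 kept their direction and side of the threshold, 44 no longer passed, 36 newly passed and 45 changed sign with neither value passing. None of the sign changes involved a passing value. The number of members past the threshold for implanted against MMTV-PyMT ECs under PBS was 2, and it was 4 with voom on recovered reads and 5 in the fit on the compared libraries alone. Tyk2 was not tested with a mean of at least 5 FPKM, so the 1 member past the threshold for MMTV-PyMT minus normal ECs became 0 (no other member passed there in either fit). For implanted minus normal ECs it was 3, and 1 with quantile normalization. Leaving out 1 library gave 2 to 5 for cGAMP in normal ECs, 1 to 2 for MMTV-PyMT minus normal ECs and 2 to 3 for both implanted against MMTV-PyMT ECs under PBS and the implanted minus MMTV-PyMT effect; the 2 in normal ECs came without normal PBS replicate 2 or normal cGAMP replicate 1 or 3, and the 2 for MMTV-PyMT minus normal without implanted cGAMP replicate 1. It gave 3 to 6 for implanted against normal ECs under PBS and 2 to 4 for implanted minus normal. The other causes were not tested. Scaling by total reads moved the median of all tested genes by -0.11 for cGAMP in MMTV-PyMT ECs and by -0.14 and -0.12 for implanted ECs under PBS against normal and MMTV-PyMT ECs. Leaving out implanted cGAMP replicate 1, 2 or 3, chosen after seeing the data, kept the number of genes past the threshold in each of the 4 pathway lists within 1.5 times in implanted ECs. All 4 ratios kept their calls under every alternative run.

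Replicate numbers showed no clear pairing of the samples: within tissues the correlation of same-numbered residuals ran from -0.291 to 0.263, 1 of 9 pairs exceeded 0.1, and 4 of 18 libraries correlated best with their own number in the other arm. With 3 libraries an arm these values cannot show whether the samples were paired. With the number as a block, members past the threshold were 4, 2 and 4 for cGAMP in normal, MMTV-PyMT and implanted ECs, and 4, 3 and 2 for the PBS comparisons, Jak1 being lost in implanted against normal ECs (adjusted p = 0.0571). The share of all tested genes passing with the block is not given beside them.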
